A study of Mus musculus with 10 samples.

Results

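The genes described here are the clustered histone genes of the mouse, the Hist1, Hist2, Hist3 and Hist4 genes, which include the testis variants of H1, H2A and H2B. The rule goes by symbol and uses no measured value: it takes every protein-coding gene whose RefSeq entry carries a symbol starting with Hist1h, Hist2h, Hist3h or Hist4h, with the cytosines listed within its span plus 1 kb on either side (its gene window). The current RefSeq table lists these genes under newer symbols, so they were found through its synonyms. This gave 67 of 21900 protein-coding genes. Of these, 61 had listed cytosines and 6 had none. The 61 gene windows held 1701 of the 6745376 cytosines of the table, in 1119 of 4489220 CpGs.

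CpG methylation was read by reduced-representation bisulfite sequencing (RRBS), in which bisulfite converts the unmethylated cytosines of restriction fragments. The cells were ID4-EGFP-positive spermatogonia of pups at postnatal day 6, which carried the Id4-eGfp reporter transgene on a C57BL/6 background, and were split by the intensity of antibody stain for the surface protein TSPAN8. The TSPAN8-high library came from the most strongly stained cells and the TSPAN8-low library from the most weakly stained cells, each from 300 ng of DNA pooled over 5 sorts. There was 1 library per fraction. The spread between replicates is therefore unknown, the tests compare these 2 libraries and not the conditions, and all intervals cover counting error only. The table holds methylation alone and no expression, so the identity of the sorted cells was not checked against marker genes. The 8 chromatin and input samples of the series were not analysed here.

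Replication-dependent histone genes supply the histones that package newly copied DNA. They are short, mostly lack introns, lie in clusters, and give messenger RNAs that end in a stem-loop in place of a poly(A) tail. Their transcription in S phase depends on the coactivator NPAT and on promoter elements that differ between histone types. In the testis some of these histones are replaced by variants, among them the linker histone H1t and the core histones TH2A and TH2B, before protamines package most of the sperm DNA. Methylation of CpGs at a promoter is generally associated with silence of the gene.

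The sequences that the results below turn on are the promoters of the testis genes, of the H4 gene Hist1h4i and of 1 gene that had no listed cytosine. RefSeq promoter sequences (GRCm38.p6) run from 250 bp before to 50 bp after the annotated start and are printed 5′ to 3′ on the strand of the gene. Capitals mark the CpGs of which a cytosine was listed in the table, and CpGs in lower case were not listed. Hist1h2ba (H2bc1, encoding TH2B) lies on the minus strand at chr13:23934107-23934406, and Hist1h2aa (H2ac1, encoding TH2A) on the plus strand at chr13:23934187-23934486, so the 2 promoters overlap and point away from each other. Hist1h1t (H1f6, encoding H1t) lies on the plus strand at chr13:23695561-23695860. Hist1h4i (H4c9) lies on the minus strand at chr13:22041313-22041612, and Hist1h2bq (H2bc23) on the minus strand at chr13:21810150-21810449.
Hist1h2ba: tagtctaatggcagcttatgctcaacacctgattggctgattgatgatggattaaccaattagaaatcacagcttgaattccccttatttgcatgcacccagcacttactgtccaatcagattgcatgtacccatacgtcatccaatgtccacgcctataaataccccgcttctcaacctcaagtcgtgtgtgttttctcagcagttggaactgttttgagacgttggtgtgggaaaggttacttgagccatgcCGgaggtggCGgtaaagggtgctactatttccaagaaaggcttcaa
Hist1h2aa: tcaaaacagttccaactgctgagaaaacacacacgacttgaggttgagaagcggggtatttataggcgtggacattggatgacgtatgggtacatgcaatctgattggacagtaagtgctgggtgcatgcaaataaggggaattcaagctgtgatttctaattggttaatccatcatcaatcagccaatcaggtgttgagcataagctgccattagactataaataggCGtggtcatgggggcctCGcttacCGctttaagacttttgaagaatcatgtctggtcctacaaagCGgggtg
Hist1h1t: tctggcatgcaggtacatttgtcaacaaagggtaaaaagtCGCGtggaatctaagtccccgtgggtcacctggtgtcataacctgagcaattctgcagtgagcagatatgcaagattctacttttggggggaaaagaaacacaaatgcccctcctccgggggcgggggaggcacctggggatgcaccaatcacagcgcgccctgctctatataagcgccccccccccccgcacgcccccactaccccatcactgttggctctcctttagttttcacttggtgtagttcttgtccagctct
Hist1h4i: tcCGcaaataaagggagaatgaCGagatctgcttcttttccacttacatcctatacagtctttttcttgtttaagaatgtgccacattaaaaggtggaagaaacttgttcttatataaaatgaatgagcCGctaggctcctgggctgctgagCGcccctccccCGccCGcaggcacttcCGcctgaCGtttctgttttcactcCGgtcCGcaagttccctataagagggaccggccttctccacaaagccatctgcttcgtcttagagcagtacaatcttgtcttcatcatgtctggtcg
Hist1h2bq: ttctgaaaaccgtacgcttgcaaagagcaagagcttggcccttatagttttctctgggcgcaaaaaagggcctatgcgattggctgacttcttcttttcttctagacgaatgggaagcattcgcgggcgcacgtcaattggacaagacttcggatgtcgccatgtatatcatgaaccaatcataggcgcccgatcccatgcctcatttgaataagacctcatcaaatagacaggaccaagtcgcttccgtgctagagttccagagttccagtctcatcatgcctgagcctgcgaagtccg
Of the CpGs in these sequences, 2 of 7 were listed for Hist1h2ba, 4 of 8 for Hist1h2aa, 2 of 10 for Hist1h1t, 10 of 13 for Hist1h4i and 0 of 17 for Hist1h2bq.

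Promoter sequences were given for 62 of the 67 genes. Hist1h2be has 2 annotated starts, which makes 63 sequences. The motif CCAAT, on either strand, occurred in 54 of them (85.7%), against 38.2% of 21263 promoters of all protein-coding genes. It was in all 6 H1, all 18 H2A, all 17 H2B and all 10 H3 promoters, but in 3 of 12 H4 promoters. The TATA motif TATAAA was in 55.6% of histone promoters and in 12.6% of all promoters. The octamer ATTTGCAT, known as a histone H2B promoter element, was in 22.2% of histone promoters and in 1.66% of all. Its 14 carriers were 7 H2A and 7 H2B genes, among them the Hist1h2ba and Hist1h2aa pair, where both promoters contain the same site. The promoter sequences of the carriers Hist1h2ah and Hist1h2bk also overlap, as do those of Hist1h2ae and Hist1h2bg. A shared site can thus count for both genes of a pair. The H1 promoter element AAACACAAA was in 4.76% of histone promoters and in 0.635% of all. It was in 1 of 6 H1 promoters, that of Hist1h1t, and in those of Hist1h2bm and Hist1h2ab. These are matches of letters in a fixed window and say nothing of binding. Histone promoters held a median of 11 CpGs (3 to 41), and all promoters a median of 13. The cut site CCGG of MspI was in 34.9% of histone promoters against 62.2% of all, the MseI site TTAA was in 73.0% against 48.1%, and the BfaI site CTAG was in 57.1% against 59.1%.

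Most clustered histone genes were close to unmethylated in both fractions. The median level of the 61 gene windows, with methylated reads pooled over cytosines, was 2.58% in TSPAN8-high against 1.95% in TSPAN8-low. Over all 19180 protein-coding gene windows tested it was 60.0% in TSPAN8-high against 60.8% in TSPAN8-low. Windows below 10% in both libraries made up 52 of 61 histone windows (85.2%), against 1192 of all 19180 (6.21%). Short genes have more of their window near the start. Among the 843 genes with a span of at most 2 kb, 35.2% were below 10% in both libraries, and among the 57 histone genes of that length 91.2% were.

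Single cytosines gave the same picture. No methylated read was seen in either library at 1100 of the 1701 histone cytosines (64.7%), against 14.1% of the whole table. Levels above 80% in both libraries were found at 111 histone cytosines (6.53%), against 63.7% of the table. The median depth was 10 reads per histone cytosine in TSPAN8-high versus 11 in TSPAN8-low. Pooled over all histone cytosines, 2209 of 21285 reads were methylated in TSPAN8-high (10.4%) against 2306 of 22394 in TSPAN8-low (10.3%), which is a difference of 0.08 percentage points (95% Newcombe interval -0.49 to 0.65).

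**Figure D1:**
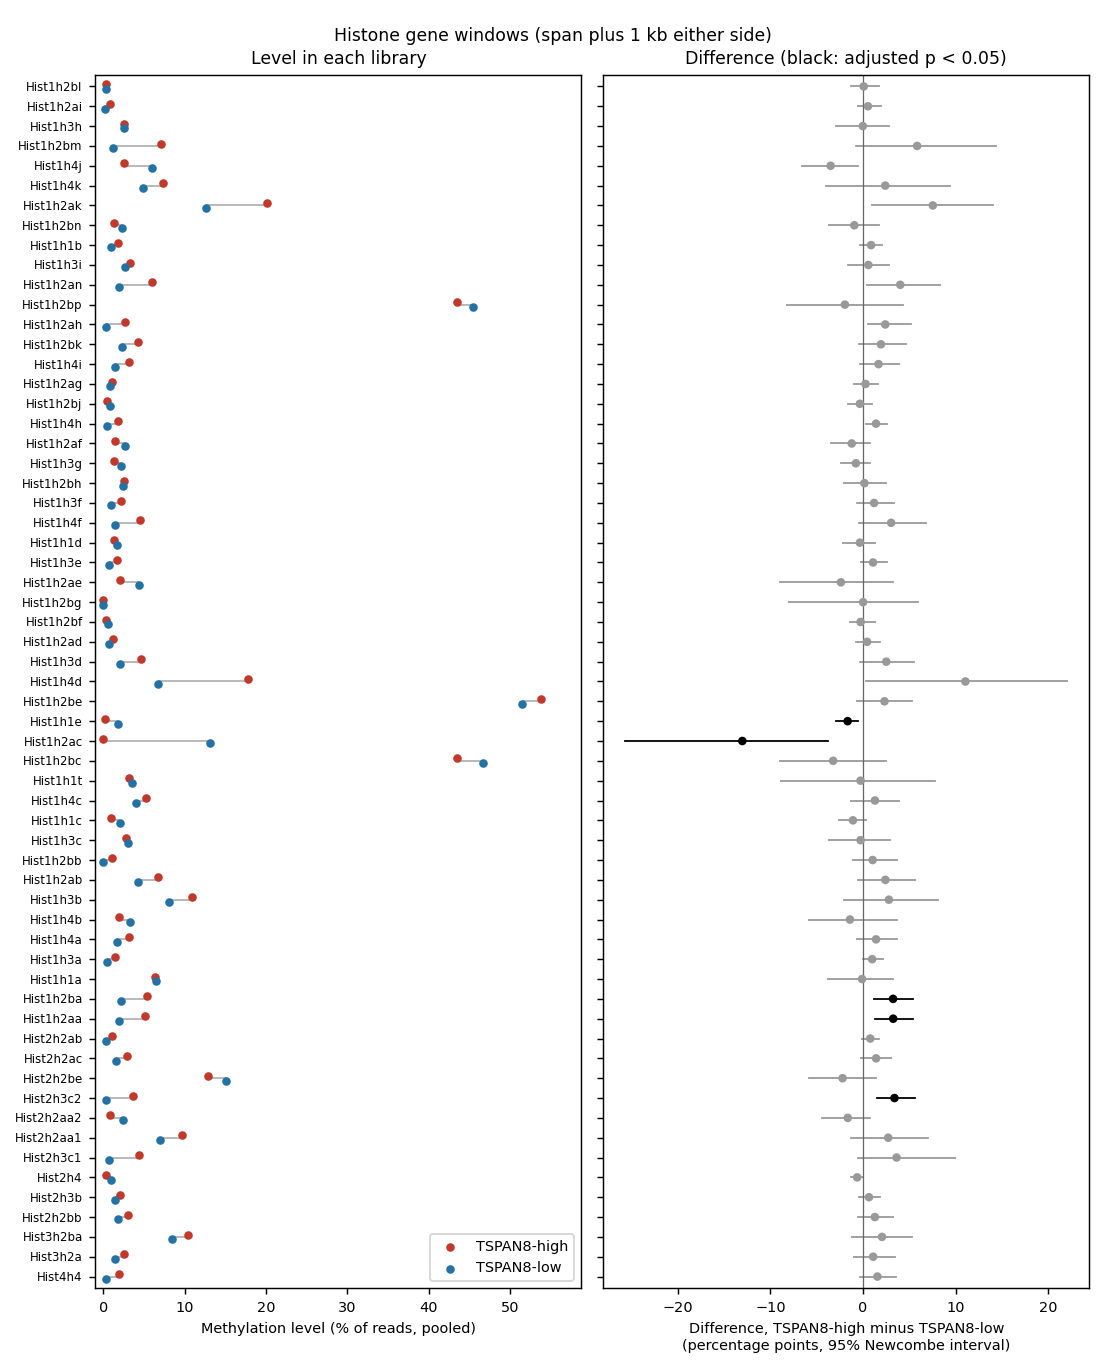
Left, methylation level of each of the 61 histone gene windows (percent of reads, pooled over cytosines) in TSPAN8-high (red) and TSPAN8-low (blue), in order of cluster and position. Right, the difference, TSPAN8-high minus TSPAN8-low, in percentage points with its 95% Newcombe interval (counting error only), in black where the adjusted p of Fisher's exact test was below 0.05. Hist1h2be, Hist1h2bp and Hist1h2bc stand above 40% in both libraries, and 52 windows lie below 10% in both.

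Between the fractions 1 of the 61 gene windows was called, by Fisher's exact test (adjusted p below 0.05, Benjamini-Hochberg over all windows, and a gap of 10 percentage points or more). Of all 19180 windows 1.24% were called (0.438% as higher in TSPAN8-high and 0.798% as lower). A window below 10% in both libraries cannot show a gap of 10 points, so 52 of the 61 histone windows could not be called. Among windows with a pooled level below 10% over both libraries, 4 of 1301 were called, and 1 of the 55 histone windows in that range. With 1 call the histone share cannot be told apart from either background. The called window was that of Hist1h2ac (H2ac6), an H2A gene at chromosome 13, 23683473 to 23683959. It had 0 of 58 methylated reads in TSPAN8-high, which allows a level of up to 5.17%, and 6 of 46 in TSPAN8-low (13.04%). The difference was -13.04 percentage points (95% Newcombe interval -25.7 to -3.74, Fisher's exact test adjusted p = 0.0377). The window rested on 6 cytosines with 5 to 15 reads each in TSPAN8-high versus 6 to 11 in TSPAN8-low. In TSPAN8-low 5 of the 6 carried a methylated read, with 1 or 2 methylated reads each, and the highest level was 18.2%. Of the 6 cytosines, 4 lay inside the span of the neighbouring Hist1h2bc, as pairs with the same read numbers, and had 0 of 40 methylated reads in TSPAN8-high and 4 of 26 in TSPAN8-low. With 1 CpG kept per 100 bp the window had 0 of 23 methylated reads in TSPAN8-high against 3 of 27 in TSPAN8-low, with too few CpGs left to be tested. None of the 6 lay in the promoter window. Widening the window to 2 kb on either side gave 2.13% in TSPAN8-high against 3.64% in TSPAN8-low, which was not called.

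With no minimum difference, 5 of 61 histone windows (3 higher and 2 lower in TSPAN8-high) had an adjusted p below 0.05, against 18.2% of all windows (5.43% higher and 12.8% lower). Among the 1301 windows with a pooled level below 10%, a range that holds all 5, the share was 9.68% (3.92% higher and 5.76% lower), and 5 of the 55 histone windows in that range passed. Beside Hist1h2ac, the linker histone gene Hist1h1e passed as lower, and the H3 gene Hist2h3c2 and the testis genes Hist1h2ba and Hist1h2aa as higher. The level was higher in TSPAN8-high at 39 histone windows (63.9%), lower at 21 and equal at 1. It was higher at 41.4% of all windows and at 45.8% of all windows with a level below 10%. The median difference was 0.86 percentage points at histone windows, against -0.50 over all windows and -0.10 over all windows with a level below 10%. Many of the histone windows share cytosines: 52 of the 67 genes lie in a stretch of overlapping windows with another, which leaves 36 separate stretches. These counts include the 6 genes without a listed cytosine, which lie in stretches of their own.

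The linker histone genes Hist1h1a to Hist1h1e and Hist1h1t, whose products bind the DNA between nucleosomes, had a median level of 1.58% in TSPAN8-high against 1.95% in TSPAN8-low. The level was lower in TSPAN8-high at 5 of 6. Hist1h1e (chromosome 13, 23621777 to 23622558) had 1 of 578 methylated reads in TSPAN8-high (0.17%) versus 13 of 706 in TSPAN8-low (1.84%), which differ by -1.67 percentage points (95% Newcombe interval -2.96 to -0.56, Fisher's exact test adjusted p = 0.0315). A methylated read was seen at 1 of its 54 cytosines in TSPAN8-high and at 11 in TSPAN8-low. With 1 CpG kept per 100 bp it was 0 of 153 reads in TSPAN8-high against 3 of 182 in TSPAN8-low (Fisher's exact test, adjusted p = 0.639). Hist1h1c had 0.96% in TSPAN8-high against 2.05% in TSPAN8-low, Hist1h1d 1.34% in TSPAN8-high against 1.68% in TSPAN8-low, and Hist1h1a, the most methylated of the 6, 6.35% in TSPAN8-high against 6.45% in TSPAN8-low. Hist1h1b had 1.83% in TSPAN8-high against 0.97% in TSPAN8-low, the only 1 of the 6 with the higher level in TSPAN8-high.

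The 16 H2A windows had a median of 2.27% in TSPAN8-high versus 1.92% in TSPAN8-low, and 12 were higher and 4 lower in TSPAN8-high. Beside Hist1h2ac, the widest gap was at Hist1h2ak (20.1% of 244 reads in TSPAN8-high against 12.6% of 247 in TSPAN8-low). It was 7.53 percentage points (95% Newcombe interval 0.98 to 14.1, Fisher's exact test adjusted p = 0.110). Most of its methylated reads came from both strands of 1 CpG at the edge of the window, which had 21 of 21 and 26 of 28 methylated reads in TSPAN8-high against 11 of 13 and 14 of 14 in TSPAN8-low. That CpG was read more deeply in TSPAN8-high, and the unweighted mean over the 14 cytosines of the window was 14.2% in TSPAN8-high versus 15.8% in TSPAN8-low. Hist1h2an had 12 of 201 reads (5.97%) in TSPAN8-high against 5 of 256 (1.95%) in TSPAN8-low (Fisher's exact test, adjusted p = 0.150). Of these, 1 cytosine outside the gene had 9 of 14 methylated reads in TSPAN8-high against 2 of 10 in TSPAN8-low. With 500 bp on either side Hist1h2an had 2.48% in TSPAN8-high against 0.67% in TSPAN8-low (Fisher's exact test, adjusted p = 0.558). Hist1h2ah had 7 of 262 reads (2.67%) in TSPAN8-high against 1 of 360 in TSPAN8-low (0.28%, Fisher's exact test, adjusted p = 0.0592). Hist1h2ai, among the least methylated of all, had 3 of 404 reads in TSPAN8-high against 1 of 469 in TSPAN8-low.

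The 16 H2B windows had a median of 3.65% in TSPAN8-high against 2.19% in TSPAN8-low. They held both the most and the least methylated histone genes. At the low end, Hist1h2bg had 0 of 61 reads in TSPAN8-high, which allows up to 4.92%, and 0 of 44 in TSPAN8-low, which allows up to 6.82%. Hist1h2bl had 1 of 276 reads in TSPAN8-high and 1 of 340 in TSPAN8-low. Hist1h2bf had 1 of 302 in TSPAN8-high and 3 of 500 in TSPAN8-low, and Hist1h2bb had 2 of 194 in TSPAN8-high and 0 of 195 in TSPAN8-low. The most methylated H2B windows were those of the 4 genes with an annotated span over 2 kb and listed cytosines.

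RefSeq gives Hist1h2be a span of 37455 bp, Hist1h2bp 14079 bp, Hist1h2bc 8282 bp and Hist2h2be 2667 bp. The Hist1h2be window had 53.8% in TSPAN8-high against 51.5% in TSPAN8-low, Hist1h2bp had 43.5% in TSPAN8-high against 45.4% in TSPAN8-low, Hist1h2bc had 43.4% in TSPAN8-high against 46.7% in TSPAN8-low, and Hist2h2be had 12.9% in TSPAN8-high against 15.1% in TSPAN8-low. None of these differences passed the test. Methylated and unmethylated stretches lay side by side in each. More than 1 kb inside the span Hist1h2be had 57.4% in TSPAN8-high against 55.6% in TSPAN8-low, and within 1 kb of its annotated start at the upper coordinate it had 0.76% in TSPAN8-high against 2.19% in TSPAN8-low. Hist1h2bp had 74.4% in TSPAN8-high against 80.3% in TSPAN8-low more than 1 kb inside, and 3.23% in TSPAN8-high against 1.24% in TSPAN8-low within 1 kb of its start. Within 1 kb of the end at the lower coordinate, Hist2h2be had 3.23% in TSPAN8-high and 1.72% in TSPAN8-low, while its other end had 92.6% in TSPAN8-high and 96.0% in TSPAN8-low. For Hist1h2bc the lower end had 0 of 59 reads in TSPAN8-high and 4 of 41 in TSPAN8-low, while the other end had 75.7% in TSPAN8-high and 83.9% in TSPAN8-low. Those 4 methylated reads are the same that the called Hist1h2ac window holds inside the Hist1h2bc span. Hist1h2be held a further stretch near 0 between 1.08 and 3.23 kb above its lower end, which holds its other annotated start and had 6 of 603 methylated reads in TSPAN8-high and 6 of 735 in TSPAN8-low. A stretch of 12 cytosines from 14.5 to 14.7 kb was low but not at 0, with 8 of 121 methylated reads in TSPAN8-high (6.61%) against 19 of 142 in TSPAN8-low (13.4%) and a highest level of 11.1% in TSPAN8-high against 35.7% in TSPAN8-low.

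**Figure D2:**
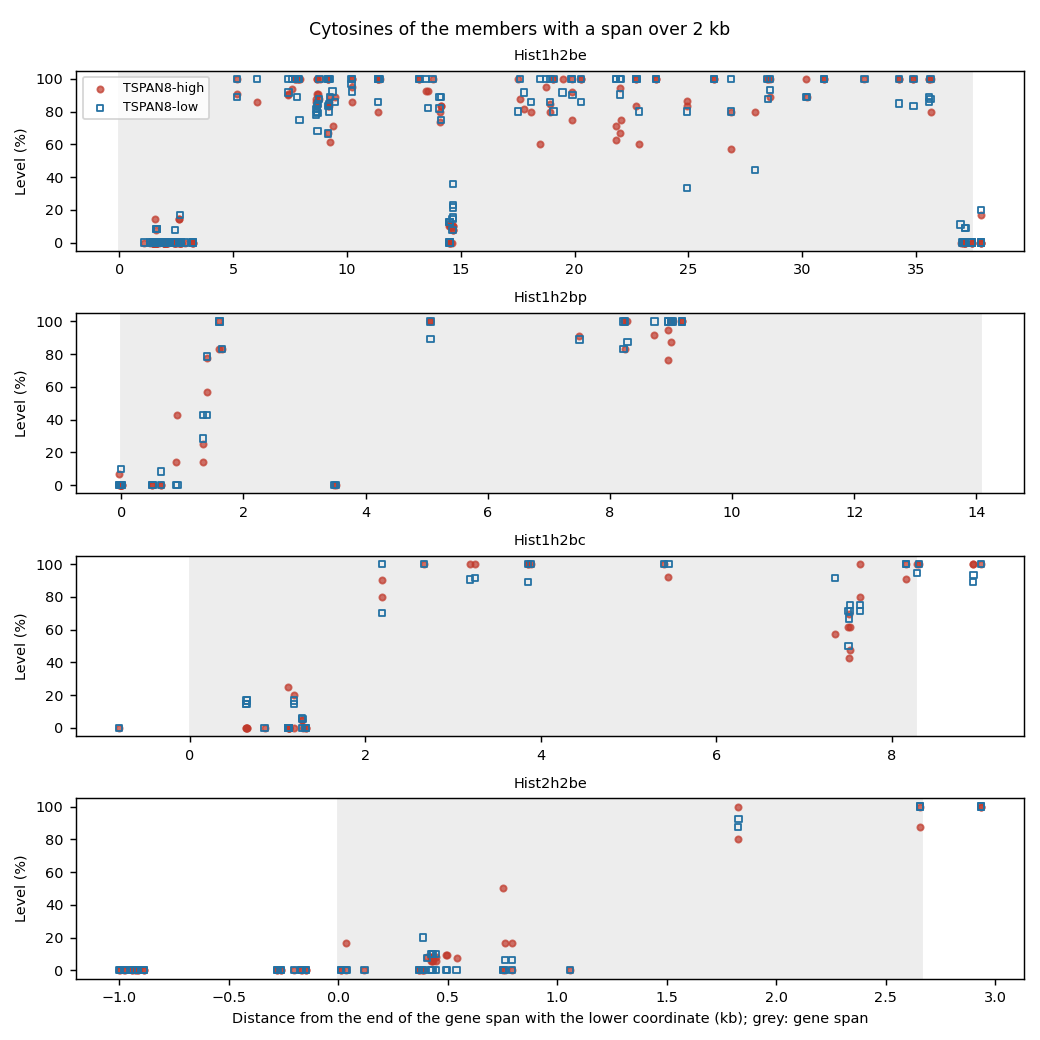
Methylation level (percent) of each cytosine along the 4 histone genes with a span over 2 kb, by distance in kb from the end of the span with the lower coordinate. Red points are TSPAN8-high, open blue squares TSPAN8-low, and grey marks the gene span. Cytosines of low and of high level form separate stretches at the same places in both libraries.

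The cytosines that lay only in the windows of these 4 genes numbered 251 and held 107 of the 111 histone cytosines above 80% in both libraries. Their pooled level was 57.2% in TSPAN8-high versus 57.0% in TSPAN8-low. The other 1450 cytosines had 604 of 18478 methylated reads in TSPAN8-high (3.27%) against 476 of 19185 in TSPAN8-low (2.48%). The difference was 0.79 percentage points (95% Newcombe interval 0.45 to 1.13). With 1 CpG kept per 100 bp these cytosines had 4.56% in TSPAN8-high against 3.38% in TSPAN8-low, and differed by 1.17 percentage points (95% Newcombe interval 0.54 to 1.82). This split by span was chosen after the values were seen.

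The 12 H3 windows had a median of 2.62% in TSPAN8-high versus 1.72% in TSPAN8-low, with 9 higher and 3 lower in TSPAN8-high. Hist2h3c2 (chromosome 3, 96238479 to 96239127) had 16 of 435 methylated reads in TSPAN8-high (3.68%) against 1 of 349 in TSPAN8-low (0.29%). The difference was 3.39 percentage points (95% Newcombe interval 1.47 to 5.62, Fisher's exact test adjusted p = 0.00827). A methylated read was seen at 9 of its 14 cytosines in TSPAN8-high and at 1 in TSPAN8-low. With 1 CpG kept per 100 bp it had 4.08% in TSPAN8-high against 0.65% in TSPAN8-low (Fisher's exact test, adjusted p = 0.406). With 2 kb on either side the direction turned, to 8.95% in TSPAN8-high against 11.0% in TSPAN8-low. Its near copy Hist2h3c1 had 4 of 92 reads (4.35%) in TSPAN8-high against 1 of 137 (0.73%) in TSPAN8-low. The promoters of the 2 genes share an identical stretch of 231 bp, and none of their promoter CpGs was listed. The most methylated H3 window was that of Hist1h3b, with 10.9% in TSPAN8-high against 8.08% in TSPAN8-low.

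The 11 H4 windows had a median of 3.10% in TSPAN8-high against 1.69% in TSPAN8-low, with 8 higher and 3 lower in TSPAN8-high, and none passed the test. Hist1h4j had 9 of 360 reads (2.50%) in TSPAN8-high against 23 of 383 in TSPAN8-low (6.01%, Fisher's exact test, adjusted p = 0.0854). With 500 bp on either side it had 0 of 318 reads in TSPAN8-high and 4.45% of 337 in TSPAN8-low (Fisher's exact test, adjusted p = 0.00103). The other alternatives gave no such p. With 1 CpG kept per 100 bp it had 5.26% in TSPAN8-high against 7.33% in TSPAN8-low (Fisher's exact test, adjusted p = 0.836). With 2 kb on either side it had 7.11% in TSPAN8-high against 8.06% in TSPAN8-low (Fisher's exact test, adjusted p = 0.848). Hist1h4h had 15 of 821 reads (1.83%) in TSPAN8-high against 3 of 696 in TSPAN8-low (0.43%, Fisher's exact test, adjusted p = 0.0730). Hist1h4d, with under 100 reads in each library, had 13 of 73 reads in TSPAN8-high against 5 of 74 in TSPAN8-low. All of these lay on both strands of 1 CpG beyond the gene, with 6 of 12 and 7 of 10 methylated reads in TSPAN8-high against 3 of 16 and 2 of 5 in TSPAN8-low. Hist4h4, the only gene here with a Hist4 symbol, had 7 of 366 reads (1.91%) in TSPAN8-high versus 1 of 275 (0.36%) in TSPAN8-low.

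The testis histone genes were also weakly methylated in both fractions. Hist1h2ba and Hist1h2aa start 281 bp apart, and their windows share all but 1 of 54 cytosines, so they count as 1 measurement. Over the 54 cytosines, 36 of 668 reads were methylated in TSPAN8-high (5.39%) against 14 of 651 in TSPAN8-low (2.15%). The difference was 3.24 percentage points (95% Newcombe interval 1.19 to 5.40, Fisher's exact test adjusted p = 0.0181 for the Hist1h2ba window). The level was higher in TSPAN8-high at 22 cytosines, lower at 5 and equal at 27, and the highest level was 28.6% in each library.

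The level was higher in TSPAN8-high inside both genes and lower between them, and the places were not tested against each other. The Hist1h2ba span had 14 of 277 methylated reads in TSPAN8-high versus 2 of 246 in TSPAN8-low, and the Hist1h2aa span 17 of 285 in TSPAN8-high and 6 of 278 in TSPAN8-low. The 4 cytosines between the genes had 0 of 30 reads in TSPAN8-high and 2 of 26 in TSPAN8-low. In the Hist1h2aa promoter printed above, 1 of 51 reads was methylated in TSPAN8-high against 5 of 49 in TSPAN8-low (Fisher's exact test, adjusted p = 0.772). The Hist1h2ba promoter, with 2 listed CpGs and so not tested, had 1 of 26 methylated reads in TSPAN8-high against 2 of 18 in TSPAN8-low. Neither promoter thus had the higher level in TSPAN8-high. The plus strand had 17 of 402 methylated reads in TSPAN8-high and 6 of 327 in TSPAN8-low, and the minus strand 19 of 266 in TSPAN8-high and 8 of 324 in TSPAN8-low. With at least 10 reads per cytosine the level was 6.15% in TSPAN8-high against 0.59% in TSPAN8-low (Fisher's exact test adjusted p = 0.000869). With 1 CpG kept per 100 bp it was 5.81% in TSPAN8-high against 4.91% in TSPAN8-low (difference 0.90, 95% Newcombe interval -4.34 to 6.32, Fisher's exact test adjusted p = 0.965). Neighbouring cytosines here often show the same read numbers, such as 7 cytosines with 14 reads each in TSPAN8-high and 12 each in TSPAN8-low, and reads that cover several CpGs are counted at each.

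**Figure D3:**
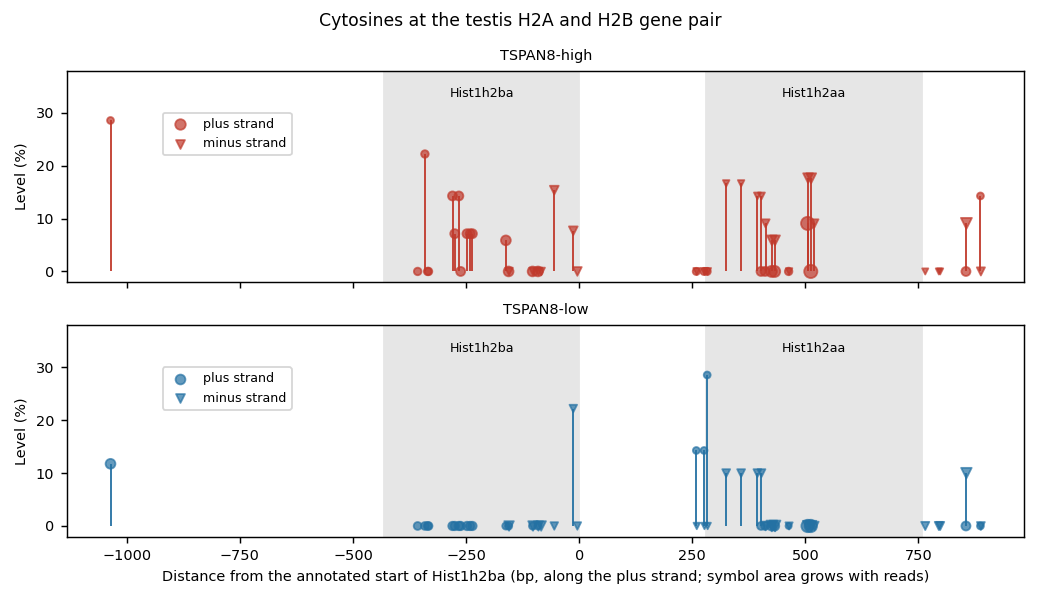
Methylation level (percent) of the 54 cytosines at Hist1h2ba and Hist1h2aa in TSPAN8-high (top) and TSPAN8-low (bottom), by distance in bp from the annotated start of Hist1h2ba. Circles are plus-strand and triangles minus-strand cytosines, the symbol area grows with the number of reads, and grey marks the gene spans. Levels above 0 stand at 24 cytosines in TSPAN8-high and at 10 in TSPAN8-low.

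Hist1h1t, the H1t gene, had 2 of 63 methylated reads in TSPAN8-high (3.17%) versus 2 of 58 in TSPAN8-low (3.45%), over 6 cytosines. The 2 listed cytosines of its promoter, a CGCG on the printed sequence, had 0 of 14 reads in TSPAN8-high, which allows up to 21.4%, and 0 of 12 in TSPAN8-low, which allows up to 25.0%. Hist3h2ba, of the small Hist3 cluster on chromosome 11, had 63 of 605 reads (10.4%) in TSPAN8-high against 56 of 669 (8.37%) in TSPAN8-low, most of them beyond the gene. Its start window had 2 of 117 reads in TSPAN8-high and 2 of 202 in TSPAN8-low. Hist3h2a had 9 of 353 reads (2.55%) in TSPAN8-high and 6 of 410 (1.46%) in TSPAN8-low, and in its start window 0 of 97 in TSPAN8-high and 0 of 101 in TSPAN8-low.

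Promoters themselves could be compared at 33 start windows (250 bp before to 50 bp after the annotated start, at least 3 CpGs). Some of these overlap. Hist1h2an and Hist1h2bp have the same counts, as do Hist1h2bf and Hist1h2ad, so the 33 are not all separate measurements. None of the 33 was called, against 0.305% of 10494 start windows of all protein-coding genes. At an unadjusted p below 0.05 there were 2, Hist1h4i and Hist1h4j, against 9.37% of all start windows. The median level of the 33 was 0.64% in TSPAN8-high versus 0.99% in TSPAN8-low, and that of all start windows 0.51% in TSPAN8-high against 0.48% in TSPAN8-low. Unlike the gene windows, fewer of the 33 were higher in TSPAN8-high (12) than lower (15), and 6 were equal. Of all start windows 4212 were higher, 4090 lower and 2192 equal. At any size of difference Hist1h4i alone had an adjusted p below 0.05, against 1.92% of all start windows. In the sequence printed above, 9 of 228 reads were methylated in TSPAN8-high (3.95%) against 0 of 289 in TSPAN8-low, which allows up to 1.04%. The difference was 3.95 percentage points (95% Newcombe interval 1.67 to 7.33, Fisher's exact test adjusted p = 0.0358). The Hist1h4i gene window had 14 of 449 reads in TSPAN8-high against 7 of 483 in TSPAN8-low (Fisher's exact test, adjusted p = 0.298). With 1 CpG kept per 100 bp that gene window had 5 of 172 reads in TSPAN8-high against 3 of 173 in TSPAN8-low. The start window itself was not thinned. Hist1h4j had 0 of 125 reads in TSPAN8-high, which allows up to 2.40%, and 6 of 103 in TSPAN8-low (5.83%, Fisher's exact test, adjusted p = 0.190). Among the tested promoters of linker histone genes, those with no methylated read in TSPAN8-high were those of Hist1h1a (0 of 152 reads in TSPAN8-high against 0 of 104 in TSPAN8-low), Hist1h1e (0 of 104 in TSPAN8-high against 4 of 105 in TSPAN8-low) and Hist1h1c (0 of 58 in TSPAN8-high against 4 of 104 in TSPAN8-low). The Hist1h1b promoter had 1 of 95 reads in TSPAN8-high against 4 of 58 in TSPAN8-low.

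Around the 58 annotated starts of histone genes with a span of at most 2 kb, the mean level was 1.36% in TSPAN8-high versus 1.52% in TSPAN8-low from 400 to 200 bp before the start, and 1.33% in TSPAN8-high versus 1.37% in TSPAN8-low in the first 200 bp after it. Other protein-coding genes had 4.94% in TSPAN8-high against 4.93% in TSPAN8-low from 400 to 200 bp before the start, and 2.64% in TSPAN8-high against 2.63% in TSPAN8-low in the first 200 bp after it. In some of the other bins within 1 kb, though not from 200 bp before the start to the start, the libraries differed more at histone starts. That bin had 1.41% in TSPAN8-high against 1.36% in TSPAN8-low. From 200 to 400 bp after the start the mean was 2.79% in TSPAN8-high against 0.84% in TSPAN8-low, and from 800 to 1000 bp after it 4.94% in TSPAN8-high against 2.34% in TSPAN8-low. From 600 to 400 bp before the start it was 3.68% in TSPAN8-high against 2.06% in TSPAN8-low, and from 800 to 600 bp before it 4.93% in TSPAN8-high against 3.01% in TSPAN8-low. Of the 10 bins within 1 kb, 6 were higher and 4 lower in TSPAN8-high, with differences of -0.28 to 2.60 percentage points at histone starts and of -0.19 to 0.11 at other starts. Each histone bin there rests on 77 to 281 cytosines, against 30664 or more at other starts, and the bins were not tested. From 1000 to 800 bp before the start histone genes had 5.29% in TSPAN8-high against 5.43% in TSPAN8-low, and other genes had 20.3% in both libraries. The low level reached further on either side of histone starts than of other starts, which was not tested, and neighbouring histone genes lie within these distances.

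**Figure D4:**
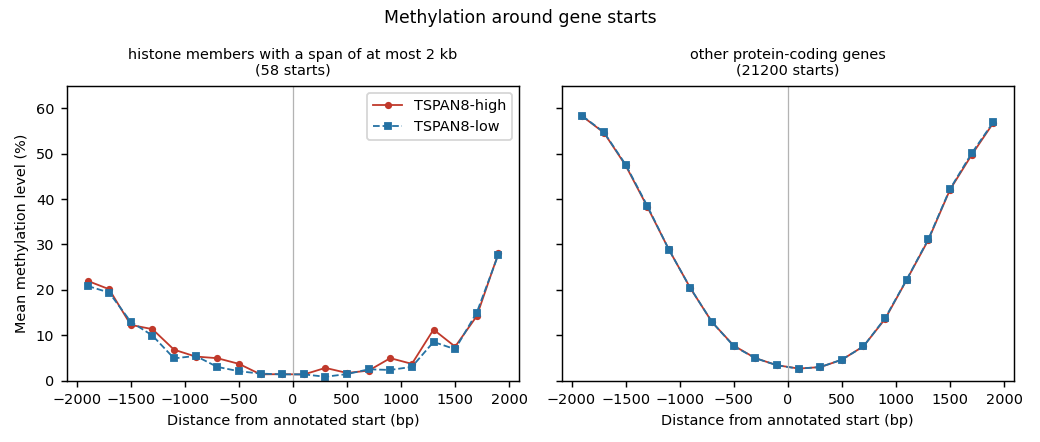
Mean methylation level (percent, over cytosines) in bins of 200 bp by distance from the annotated start, for 58 histone starts (left) and 21200 starts of other protein-coding genes (right). Red circles are TSPAN8-high and blue squares TSPAN8-low. The low stretch is wider at histone starts. Within 1 kb of the start the libraries differ by up to 2.60 percentage points at histone genes and by up to 0.19 at other genes.

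No single histone cytosine was called of 1701 (adjusted p below 0.05 by Fisher's exact test and a gap of 20 percentage points or more), against 0.00111% of the whole table. At an unadjusted p below 0.05 there were 6 (0.353%), against 1.46% of the table. The largest difference was at a cytosine inside the long span of Hist1h2be, chr13:23608607, with 26 of 30 methylated reads in TSPAN8-high against 4 of 12 in TSPAN8-low. A cytosine shared by the Hist2h2ac and Hist2h2be windows had 4 of 8 in TSPAN8-high against 0 of 11 in TSPAN8-low, and 1 at Hist1h4c 4 of 8 in TSPAN8-high against 0 of 5 in TSPAN8-low. Next came 1 at Hist1h2an (9 of 14 in TSPAN8-high against 2 of 10 in TSPAN8-low) and 1 at Hist1h2bp (3 of 7 in TSPAN8-high against 0 of 6 in TSPAN8-low). In the other direction, 3 of the 5 largest lay in the Hist1h2be span (3 of 5 in TSPAN8-high against 5 of 5 in TSPAN8-low, 5 of 8 in TSPAN8-high against 5 of 5 in TSPAN8-low, and 8 of 12 in TSPAN8-high against 16 of 16 in TSPAN8-low). The other two lay at Hist1h1t (0 of 8 in TSPAN8-high against 2 of 5 in TSPAN8-low) and Hist1h2bc (4 of 7 in TSPAN8-high against 11 of 12 in TSPAN8-low). At these depths differences of such sizes at single cytosines were not detectable after adjustment over the table.

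The 6 histone genes without a listed cytosine, Hist1h2bq, Hist1h2ao, Hist1h4m, Hist1h4n, Hist1h2ap and Hist1h2br, lay together in a stretch of 50587 bp of chromosome 13. The last listed cytosine before it was at 21796664 and the first after it at 21847252. Each of their promoters shares an identical stretch of at least 233 bp with the promoter of another histone gene, and those of Hist1h2bq, printed above, and Hist1h2br are identical over all 300 bp. Their 94 promoter CpGs were all unlisted. Among promoters of genes with listed cytosines, the longest shared stretch had a median of 15 bp, and 4 of 57 shared 100 bp or more. Those 4 belong to Hist2h3c1, Hist2h3c2, Hist2h2aa1 and Hist2h2aa2, and 5 of their 132 CpGs (3.79%) were listed. Among the 53 promoters that shared less, 199 of 582 CpGs (34.2%) were listed. Duplicated sequence and missing values went together. Whether reads of these genes were discarded as ambiguous was not tested.

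**Figure D5:**
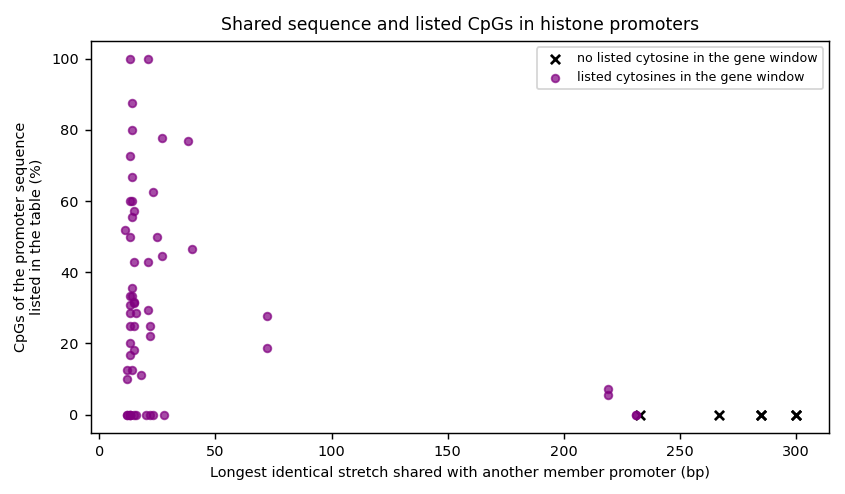
Share of CpGs in each histone promoter sequence that were listed in the table (percent) against the longest identical stretch (bp) that the promoter shares with another histone promoter. Crosses are genes with no listed cytosine in their window and purple points the others. All promoters that share 100 bp or more lie below 10%, while the others range from 0 to 100%.

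Histone genes outside these clusters gave a wider range of gene window levels. All 11 replication-independent histone genes on the list, whose expression is not limited to S phase, had tested gene windows and none was called. At any size of difference 2 of the 11 passed, near the 18.2% of all gene windows: H1fx, a linker histone gene, as higher (4.80% in TSPAN8-high against 0 of 508 reads in TSPAN8-low, Fisher's exact test adjusted p = 3.49e-06) and the H3.3 gene H3f3a as lower (16.9% in TSPAN8-high against 19.97% in TSPAN8-low, Fisher's exact test adjusted p = 0.0216). The H1fx start window had 13.1% in TSPAN8-high and 0 of 163 reads in TSPAN8-low and was 1 called of 6 start windows tested, against the 0.305% of all start windows. The median level of these 6 start windows was 1.08% in TSPAN8-high against 0.90% in TSPAN8-low, and 5 were below 10% in both libraries. Of 14 germ cell variants and packaging proteins 13 were found and 7 tested, with none called. The protamine gene Prm1 (94.6% in TSPAN8-high against 95.2% in TSPAN8-low), the transition protein gene Tnp2 (90.5% in TSPAN8-high against 92.1% in TSPAN8-low) and the oocyte linker histone gene H1foo (93.5% in TSPAN8-high against 98.0% in TSPAN8-low) were methylated in both fractions. Tnp1 had 5.24% in TSPAN8-high against 9.72% in TSPAN8-low. Of 15 genes for factors of histone gene expression, all were tested and none called. At any size 3 of the 15 passed, again near the 18.2% of all gene windows: Ccne2, which encodes a cyclin of S-phase entry, as higher (20.7% in TSPAN8-high against 17.6% in TSPAN8-low), and Coil, which encodes the Cajal body protein coilin (65.8% in TSPAN8-high against 73.3% in TSPAN8-low), and Gon4l (85.0% in TSPAN8-high against 88.0% in TSPAN8-low) as lower. A start window was tested for 9 of these genes, among them the coactivator gene Npat and the stem-loop binding protein gene Slbp, and the most deeply read one of each gene was below 10% in both libraries.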

How the data were processed

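DNA methylation was measured by RRBS in 1 TSPAN8-high and 1 TSPAN8-low library; DNA was cut with BfaI, MseI and MspI and sequenced as paired reads of 50 bp, per the labels' protocols. The authors deposited 1 table with a line per CpG cytosine and strand. The deposited level is a fraction, rounded to 2 decimals. The deposited coverage holds read counts, with no value below 5. The deposited difference column (unit other) and p-value were not used for results, and the deposited p-value equalled Fisher's exact p within a relative 0.001 at 94.2% of histone cytosines. The aligner is not given in the sources used here; the submitters' processing notes list Bowtie, SICER and the builds mm9 and mm10, with no role. All 192684 listed cytosines inside RefSeq promoter sequences (GRCm38.p6) fell on a CG, so positions were taken as mm10.

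The number of methylated reads was level times coverage, rounded; it was pooled per gene window (at least 5 CpGs) or start window (at least 3). Two-sided Fisher's exact tests compared the libraries, with Benjamini-Hochberg adjustment over all features of a kind (Python 3.11.15, scipy 1.17.1), tested on simulated data. Windows were called at 10 percentage points and cytosines at 20. A read spanning several CpGs counts at every one, so p is too small. Without molecular identifiers, reads may be copies of 1 molecule, so intervals and the 3 counts that a 0 allows cover counting error only. Where 0 of n reads were methylated, the level allowed is up to 3 of n. Alternatives changed the coverage minimum, window, minimum difference, CpG number and thinning to 1 CpG per 100 bp. Named genes were the testis genes, called windows, the 5 largest rises and falls with at least 100 reads, the 5 most and least methylated windows and the 5 largest cytosine differences each way, with Hist4h4; other genes were named after their values were seen, to illustrate their group. The genes and lists were chosen with earlier results of these data known. Of 14 germ cell genes, H2afb1 matched more than 1 entry and was left out.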

Additional observations from a re-analysis of the deposited data

How the results depend on the processing

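No paired analysis was possible because each fraction had 1 library. For the same reason no replicate could be left out. The difference over all histone cytosines, 0.08 percentage points, became 0.89 at 20 or more reads and 0.79 without the genes over 2 kb (chosen after seeing the data; 95% interval 0.45 to 1.13); under the other alternatives it ran from -0.49 with 1 CpG per 100 bp to 0.55 without the Hist1 genes, with an interval that included 0 wherever one was computed. The pooled level depended on the window: 18.4% in TSPAN8-high and 18.2% in TSPAN8-low for spans only, and 15.3% in TSPAN8-high and 15.1% in TSPAN8-low with 2 kb. The count of called gene windows, 1, was 0 at 10 or more reads, 0 at 20 or more, 0 with 1 CpG per 100 bp, 0 for spans only, 0 with 500 bp, 0 with 2 kb and 0 with at least 10 CpGs. In all of these but the 2-kb window, Hist1h2ac no longer held enough CpGs to be tested, and with 2 kb its difference was -1.51. With no minimum difference 5 were called. Hist2h3c2 turned to -2.02 with 2 kb, for which the cause was not tested. Of 143 values of the 21 named genes under alternatives, 16 had the opposite sign, of which 6 came with 2 kb. Calls at single cytosines and start windows were 0 throughout. Depth limits what can be seen: with 10 reads per cytosine, 1 read is 10 percentage points.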

Other observations

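Of the pseudogenes among the Hist symbols, which were left out of the counts, Hist3h2bb-ps had 1.10% methylated reads in TSPAN8-high against 0.23% in TSPAN8-low. Hist1h2al, which lies apart from the cluster at chromosome 13, 51200084 to 51203066, had 72.5% in TSPAN8-high against 73.7% in TSPAN8-low. Hist1h2aj has the same listed cytosines as Hist1h2bm, with 5 of 71 methylated reads in TSPAN8-high and 1 of 83 in TSPAN8-low.

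The surroundings of histone genes were more methylated with distance up to 2 kb, and not further from there to 5 kb in TSPAN8-high or by unweighted means. From 800 to 1000 bp beyond the gene spans the pooled level was 12.8% in TSPAN8-high versus 13.4% in TSPAN8-low. From 1000 to 1200 bp it was 23.0% in TSPAN8-high against 22.4% in TSPAN8-low, and from 1 to 2 kb 62.0% in TSPAN8-high against 60.0% in TSPAN8-low. From 2 to 5 kb it was 58.7% in TSPAN8-high against 63.5% in TSPAN8-low, which differ by -4.83 percentage points (95% Newcombe interval -6.71 to -2.94). None of these 385 cytosines was called, and their unweighted means were 60.8% in TSPAN8-high against 60.9% in TSPAN8-low.

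The number of reads was even at 54.4% of histone cytosines in TSPAN8-high against 57.6% in TSPAN8-low. Over the whole table it was even at 59.4% in TSPAN8-high against 59.5% in TSPAN8-low.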
